A study of Mus musculus with 285 samples.

Results

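The mitochondrial ribosomal protein genes were taken as every gene whose symbol starts with Mrpl or Mrps followed by a digit and whose probe gave values on 80% or more of arrays. By this rule 30 genes were members, of 11622 named genes on the array, and 36 probes measured them. Of the members, 20 encode proteins of the large subunit and 10 of the small subunit. A homologue in the bacterial ribosome is known for 19 of them, and the other 11 belong to proteins found only in the mitochondrial ribosome. They lie on 14 chromosomes. One further probe carried the human symbol MRPL42 in capitals, fell outside the rule and was kept as a bystander. They were compared with 23 nuclear genes of the respiratory chain, 13 of complex I and 10 of complex IV, the complexes with measured genes.

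The samples were skeletal muscle of 285 F2 mice, the second generation of a cross between the C57BL/6J and C3H/HeJ strains, so that each mouse carries its own mixture of both genomes. All of them had eaten chow with 4% fat up to 8 weeks of age and then, for 12 weeks, a Western diet holding 42% fat plus 0.15% cholesterol, and were killed at 20 weeks after fasting for 12 hours. Each 2-colour array set the Cy3-labelled RNA of 1 mouse against a Cy5-labelled pool drawn from all of them. The labels give no muscle, and no sex, genotype or direction of cross for a single mouse, so the mice formed 1 group. They are described across individuals, with the mouse number (51 to 362) as the order used here. The order in which the samples are listed differs from it and was not examined.

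Values are log2 ratios of mouse over pool, so 0 is the level of the pool and 1 is 2-fold above it. The base of the deposited logarithm and the direction of the ratio are not stated in the labels. Both were read from the values, and the other direction would turn the sign of every level and every trend with mouse number while leaving the correlations as they are. Array medians lay between -0.022 and 0.017 on the deposited scale. Pairs of arrays correlated between -0.743 and 0.804, with 2.35% of pairs below -0.3. The files hold ratios and no intensities, so neither the labelled tissue nor the distance from background could be checked from levels, and ratios do not rank 1 gene's abundance against another's. In bulk muscle, fewer cells of a type and less RNA per cell cannot be told apart.

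Mitochondria carry their own small genome, which encodes a handful of core subunits of the respiratory chain and ATP synthase. Those subunits are made inside the organelle by the mitochondrial ribosome. Its RNAs come from the mitochondrial genome, whereas all of its proteins are encoded in the nucleus, translated in the cytosol and imported. Skeletal muscle relies on this machinery for oxidative capacity, and transcription factors such as NRF1, the ETS factor GABP and YY1 are known regulators of many nuclear genes for mitochondrial proteins.

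The stretches before the start sites of 4 members that recur in the results are shown first, because 3 of them (Mrpl12, Mrps21 and Mrps26) varied most among the mice and Mrpl34 was among those closest to the other members. Each runs 5′ to 3′ on the gene's strand over the 120 bases before the annotated start (RefSeq, build GRCm38.p6). Capitals mark a match to the NRF1 motif, which is GCGCA and GCGC parted by 1 base of any kind, or the ETS motif CCGGAAG on either strand. The windows are chr11:120484517-120484636 on the plus strand for Mrpl12, chr3:95871515-95871634 on the minus strand for Mrps21, chr2:130563637-130563756 on the plus strand for Mrps26 and chr8:71464806-71464925 on the plus strand for Mrpl34.
Mrpl12: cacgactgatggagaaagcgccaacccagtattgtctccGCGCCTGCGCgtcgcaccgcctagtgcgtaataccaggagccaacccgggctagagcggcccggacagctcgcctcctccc
Mrps21: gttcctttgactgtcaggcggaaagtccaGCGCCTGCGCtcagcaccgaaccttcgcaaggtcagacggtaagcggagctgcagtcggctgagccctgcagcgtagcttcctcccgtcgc
Mrps26: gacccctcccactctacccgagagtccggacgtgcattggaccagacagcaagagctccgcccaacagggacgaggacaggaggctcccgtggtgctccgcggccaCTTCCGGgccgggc
Mrpl34: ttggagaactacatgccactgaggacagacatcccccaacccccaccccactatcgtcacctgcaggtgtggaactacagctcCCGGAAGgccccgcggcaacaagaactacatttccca
In Mrpl12 and Mrps21 the match was to the NRF1 motif, beginning 81 and 91 bases before the start. In Mrps26 and Mrpl34 it was to the ETS motif, beginning 14 and 37 bases before it. Over the wider windows counted next, Mrps26 also held 2 NRF1 matches and Mrps21 an ETS match.

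Promoter windows from 250 bases before to 50 bases after the start were at hand for 25 of the 30 members. An NRF1 match was present in 6 of them (24%), an ETS match in 9 (36%) and a match to the YY1 motif AAGATGGC in 4 (16%), counting both strands. At least 1 of the 3 motifs was present in 15 of the 25 members (60%), against 42.1% of 19 respiratory chain genes, 22.6% of 8675 named genes on the array and 21.0% of 17492 protein-coding genes in the same table. Among all protein-coding genes the shares were 7.17% for NRF1, 12.9% for ETS and 3.57% for YY1. Mrpl16 and Mrpl46, which were among the 3 members closest to the rest of the list, held none of the 3. A match describes the letters in a window and shows no binding.

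Differences among the mice were small for most members. The SD over the 285 mice ran between 0.12 and 0.37 log2 units with a median of 0.20, against a median of 0.29 for the respiratory chain genes and 0.21 for all named genes. Of 8550 values, 5 lay 2-fold or more from the pool, in 3 members. The median mouse was below the pool in 22 of the 30 members, against 18 of the 23 respiratory chain genes and 49.4% of all named genes.

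Mrpl12, the large-subunit homologue of the bacterial stalk protein L7/L12, varied most. Its lowest value was -1.13, its median -0.21 and its highest 1.02 log2 units (SD 0.37). Mrps21, the small-subunit homologue of bacterial S21, ran from -0.92 over a median of -0.21 up to 0.66 (SD 0.31). Mrps26, a small-subunit protein with no bacterial counterpart, ran from -0.84 over a median of -0.08 up to 0.58 (SD 0.31). Among the SDs of all named genes these 3 stood at percentiles 85.2, 76.6 and 76.4. Next in order of SD were Mrpl34 (0.29), Mrpl23 (0.27), Mrpl37 (0.26), Mrpl18 (0.26) and Mrpl1 (0.25), all of the large subunit. Mrpl37 was the one among these 8 whose median lay above the pool, at 0.11, with a lowest value of -0.81 and a highest of 0.81. The narrowest member was Mrpl32, between -0.34 and 0.33 (SD 0.12).

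**Figure D1:**
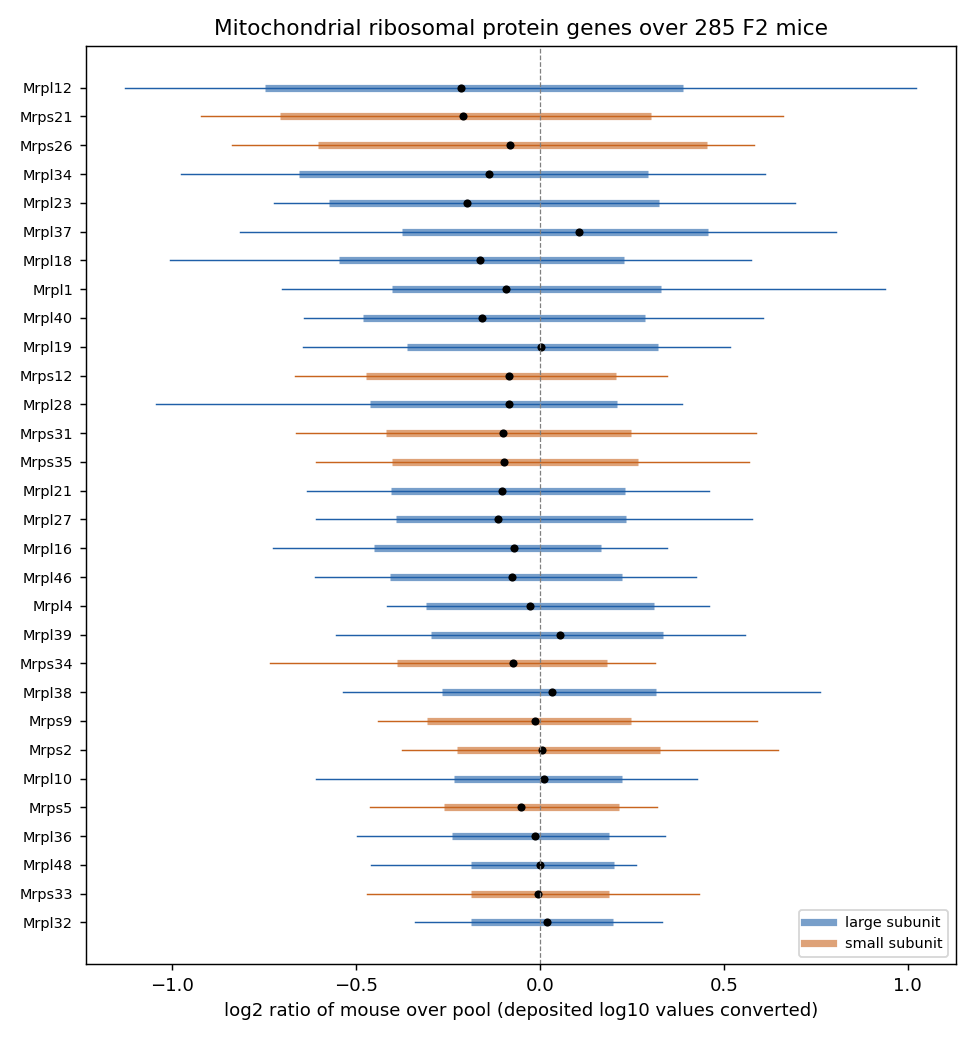
Log2 ratio of mouse over pool (x axis) for the 30 members (y axis), sorted by SD. Thin lines run from the lowest to the highest of 285 mice, thick bars from the 5th to the 95th percentile, and dots mark medians; Mrpl12 is widest (SD 0.37) and Mrpl32 narrowest (SD 0.12).

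Mouse 335 held the lowest value of 8 members, among them Mrpl12 (-1.13), Mrpl28 (-1.04), Mrpl16 (-0.73) and Mrpl34 (-0.97). Its score over all members was also the lowest, at -2.94 SD, and so was its place on the respiratory chain score, at -3.08 SD. The SD over all probes on its array was 0.48 log2 units, against a median of 0.29 for the arrays, and the part of this spread in its values was not tested. Mouse 165 held the highest value of 4 members.

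Several probes measured 4 members. Both Mrpl23 probes followed each other with r = 0.993 over the mice. The 3 Mrpl27 probes correlated between 0.409 and 0.919 and the 3 Mrpl48 probes between 0.108 and 0.952. The 2 Mrps33 probes reached 0.179, so the mean of both that is used here blends unlike signals. The same holds for the mean of Mrpl48, where 1 probe had r = 0.108 and 0.153 with the others. For Mrpl27, 1 probe had 0.409 and 0.496 with the others.

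Most members correlated positively with each other across the mice. The median Pearson r over their 435 pairs was 0.276, and 79.1% of the pairs were positive. The same measure was 0.342 for the respiratory chain genes, 0.273 between members and respiratory chain genes, and -0.005 over 1163 named genes. These correlations share arrays and a common pool, and they are given as descriptions over 285 mice. An array-wide direction, the first principal component of all 21512 features, held 15.2% of the variance. With that component removed, the median was 0.217 among members, 0.112 among respiratory chain genes and 0.053 between them. Of the member pairs 79.5% were then positive. With the first 5 components removed, the medians were 0.157, 0.196 and 0.121 in the same order. Removing a smooth trend with mouse number left 0.209, 0.282 and 0.200 in the same order.

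A score was made as the mean standardised value of a list's genes in each mouse, and each member was set against the score of the other 29. The correlation was positive in 28 members and above 0.5 in 18. It was highest for Mrpl16 (r = 0.878), the homologue of bacterial L16, and for Mrpl34 (0.852), Mrpl46 (0.828) and Mrps35 (0.776). Mrpl28 (0.765), Mrpl12 (0.762), Mrps21 (0.745) and Mrps12 (0.725), the homologue of the decoding-site protein S12, followed. Both subunits and both kinds of protein are present among these 8. The lowest were Mrpl37 (-0.167), Mrps2 (-0.013), Mrpl19 (0.018), Mrpl39 (0.106), Mrpl32 (0.160), Mrpl10 (0.163), Mrpl38 (0.216) and Mrpl48 (0.293). Without the first component Mrpl39 stood at 0.684, Mrpl10 at 0.670 and Mrpl37 at 0.545, while Mrps2 stood at -0.354 and Mrpl19 at -0.005.

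Mrpl37, Mrpl39 and Mrpl10, all of the large subunit and singled out here after their values were seen, went together. Mrpl37 correlated with Mrpl39 at r = 0.747 and with Mrpl10 at 0.625, and Mrpl10 with Mrpl39 at 0.610. The lowest r of Mrpl37 was -0.549, with Mrpl40, followed by -0.530 with Mrpl23 and -0.494 with Mrpl18. With the other members of large SD it was -0.487 for Mrpl12 and -0.490 for Mrps21, but -0.164 for Mrps26 and -0.228 for Mrpl34. Mrpl10 and Mrpl12 build the stalk of the large subunit together, and their transcripts correlated at -0.156. At the other end Mrpl23 and Mrps21, of different subunits, correlated at 0.881, Mrpl12 and Mrpl40 at 0.847, and Mrpl16 and Mrpl46 at 0.846.

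By subunit, the median pairwise r was 0.314 within the small subunit, 0.212 within the large subunit and 0.311 between them. By origin, it was 0.212 among the mitochondrion-specific members and 0.279 among those with a bacterial homologue. The 25 pairs on 1 chromosome had a median r of 0.195 and the other pairs 0.278. None of these differences was tested.

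**Figure D2:**
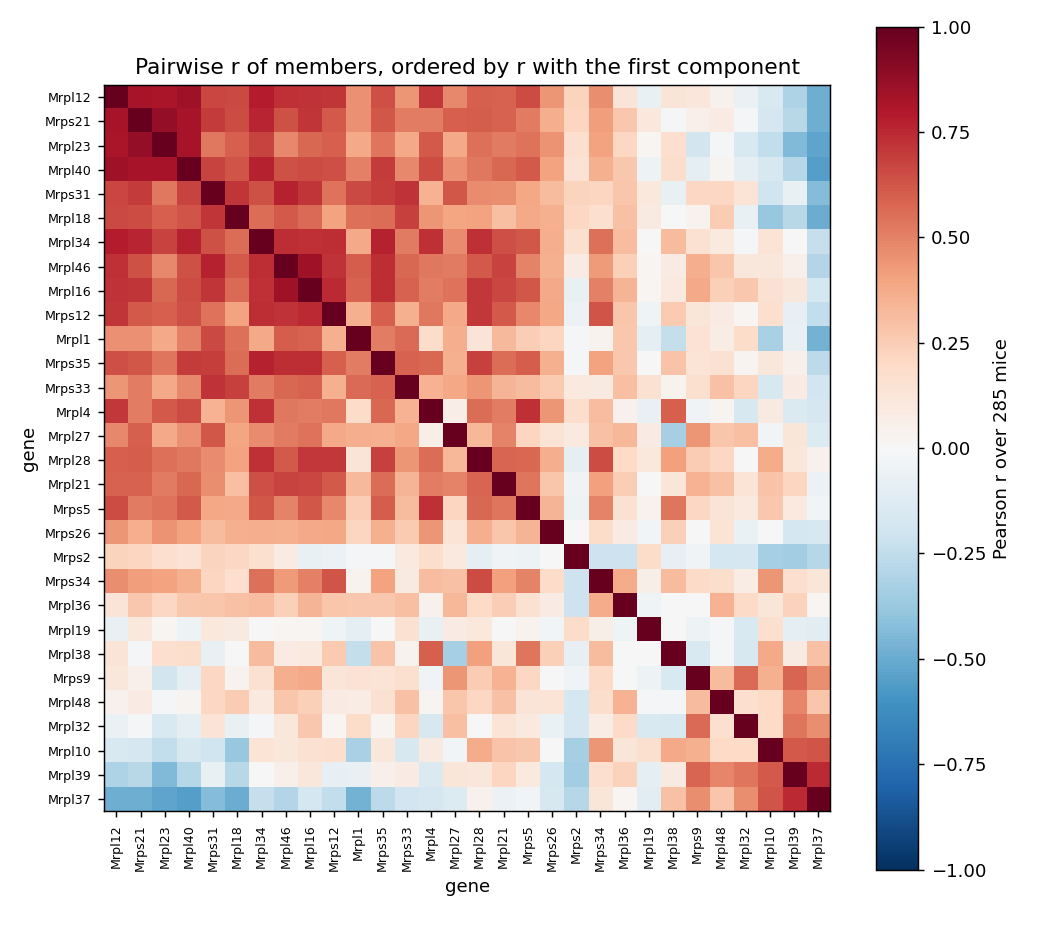
Pearson r over 285 mice for every pair of the 30 members, as colour (red positive, blue negative), with genes on both axes ordered by their r with the first principal component of all features. Mrpl12 to Mrps12 form a block of high r at the upper left, and Mrpl10, Mrpl39 and Mrpl37 a smaller one at the lower right, with Mrpl37 negative with many genes of the first block (Mrpl40 lowest, -0.549) and Mrpl10 weakly positive with some (Mrps12 0.166).

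The score of all 30 members followed the respiratory chain. It correlated with that of the 23 respiratory chain genes at r = 0.759 (Spearman rho 0.757, n = 285), and at 0.750 without the 2 mice farthest from the median. With scores rebuilt in each part it was 0.618 over the 143 lower-numbered mice and 0.806 over the 142 others. It fell to 0.448 with the first component removed and to 0.683 with the trend of mouse number removed. The component itself correlated with the member score at 0.662, and with the respiratory chain score at 0.860. Of the members, 22 were closer to the rest of their own list than to the respiratory chain score, and 26 without the component. For the 26, the score of the rest was rebuilt from genes without the component. The respiratory chain score was not rebuilt, and the component was removed from it as a whole.

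The association of single members with the respiratory chain score was tested with limma over all 21512 features. The model held a smooth term for mouse number, and p-values had Benjamini-Hochberg adjustment. Shares of all features leave out the genes of the score itself, which gave 21489 features here. A gene counts here as rising or falling with a score at an adjusted p below 0.05. Along this score 20 members rose and 3 fell, where 40.1% of all features rose and 34.2% fell. The median member gained 0.065 log2 units per SD of the score, against 0.005 for all features. With the first component in the model 22 members rose and 0 fell, where 10.8% of all features rose and 9.83% fell. At an unadjusted p below 0.05 in that limma fit 23 members had a positive and 0 a negative coefficient, where 15.8% and 15.5% of all features did. The array spread as a covariate in place of the component gave 21 that rose and 3 that fell, where 40.1% and 34.4% of all features did.

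Mrpl12 rose by 0.25 ± 0.013 log2 units per SD of the respiratory chain score (SE; limma adjusted p = 3.13e-53) and Mrpl18 by 0.19 ± 0.012 (adjusted p = 3.68e-39). Mrpl34 rose by 0.18 ± 0.011, Mrps21 by 0.17 ± 0.0098, Mrpl23 by 0.15 ± 0.012 and Mrpl40 by 0.14 ± 0.0094. Mrpl23, the homologue of an exit-tunnel protein, had 0.0080 ± 0.018 with the component in the model (limma adjusted p = 0.809), whereas the other 5 still rose, Mrpl34 most (0.20 ± 0.019). The 3 members that fell were Mrpl37, Mrpl10 and Mrpl39. Mrpl37 fell by 0.11 ± 0.014, Mrpl10 by 0.047 ± 0.0097 and Mrpl39 by 0.040 ± 0.013 (limma adjusted p = 4.20e-13, 3.53e-06 and 0.00265). All 3 turned to the other side with the component in the model, Mrpl39 to 0.15 ± 0.016, Mrpl37 to 0.082 ± 0.019 and Mrpl10 to 0.079 ± 0.013. Their direction along the respiratory chain therefore depended on whether the array-wide component was held fixed.

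Within the respiratory chain the genes closest to the members were mostly of complex I. Ndufs8, an iron-sulphur subunit of complex I, correlated with the member score at r = 0.907, higher than any member with its own rest. Ndufs6 (0.816) and Ndufb7 (0.802), both of complex I, followed, then Cox7a1 (0.792), the muscle form of a complex IV subunit, and Ndufa2 (0.713). The lowest were Cox6a1 (-0.304), the form of its subunit used outside muscle, Ndufa13 (-0.130), Cox8a (-0.063), Ndufa10 (0.182) and Ndufa11 (0.274). With the component left in, 12 of 13 complex I genes were positive (median r 0.574) and 8 of 10 complex IV genes (median 0.430). Without the component, 11 of 13 complex I genes were positive (median r 0.355) and 2 of 10 complex IV genes (median -0.065). The 2 were Cox7a1 (0.634) and Cox7a2 (0.236). The difference between the complexes was not tested.

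**Figure D3:**
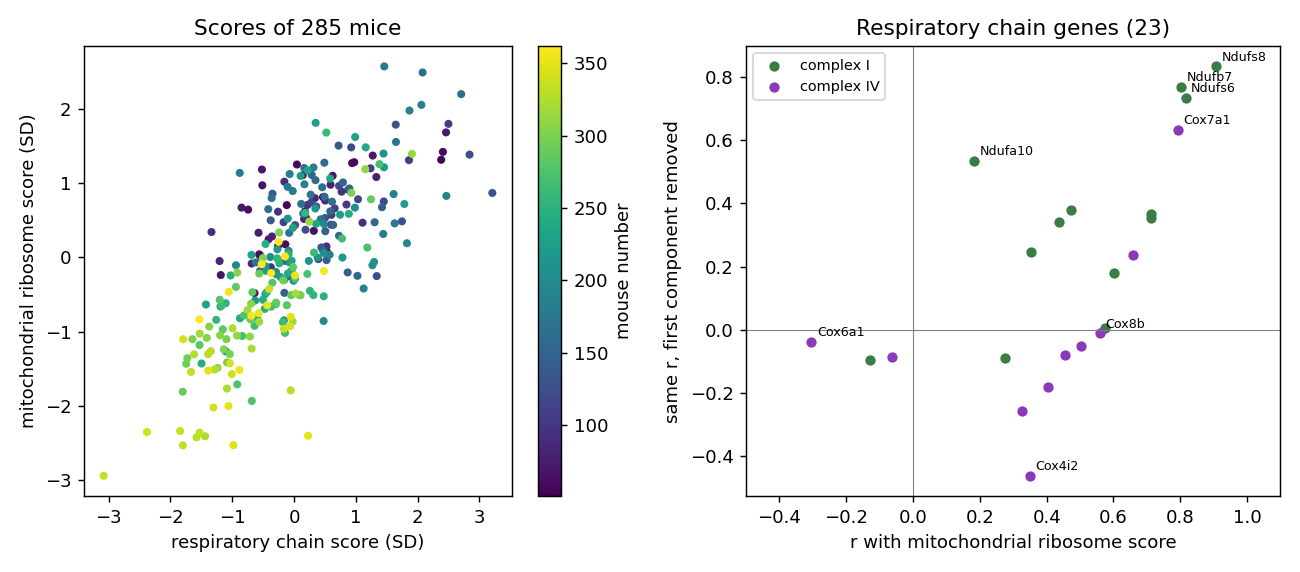
Left, mitochondrial ribosome score (y axis) against respiratory chain score (x axis), both in SD, each dot 1 of 285 mice coloured by mouse number (r = 0.759). Right, r of the 23 respiratory chain genes with the mitochondrial ribosome score (x axis), and the same without the first component (y axis). Ndufs8 is highest on both (0.907 and 0.834), and most complex IV genes lie near or below 0 on the y axis.

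ATP synthase also contains subunits made by the mitochondrial ribosome. Along the score of its 6 measured genes 22 members rose and 4 fell, where 38.8% of all features rose and 33.6% fell. The 4 were Mrpl10 (-0.050 ± 0.0092 log2 units per SD), Mrpl37 (-0.064 ± 0.015), Mrpl19 (-0.053 ± 0.013) and Mrpl39 (-0.031 ± 0.012). Holding the component fixed, 20 rose and 2 fell, Mrpl19 (-0.070 ± 0.019) and Mrps2 (-0.059 ± 0.013), where 13% of all features rose and 12.4% fell, and Mrpl10, Mrpl37 and Mrpl39 turned positive. Atp5g1, a gene of the membrane ring of the enzyme, was the closest of the 6 to the member score (r = 0.856).

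Fatty acid oxidation feeds electrons into the chain, and 21.5% of all features followed its score in either direction, against 74.3% for the respiratory chain score. Along the score of 11 genes of this pathway 19 members rose and 0 fell, where 12.8% of all features rose and 8.72% fell. At an unadjusted p below 0.05 in the same limma fit 21 had a positive and 0 a negative coefficient, where 17.9% and 14.4% of all features did. Mrpl16 rose by 0.087 ± 0.0081 log2 units per SD (limma adjusted p = 3.15e-20), Mrpl46 by 0.096 ± 0.0093 (1.25e-18) and Mrps9 by 0.094 ± 0.0098 (2.03e-16). Mrps35 (0.091 ± 0.011), Mrpl34 (0.11 ± 0.014) and Mrpl28 (0.079 ± 0.011) followed. With the component in the model 21 rose, the 6 named members among them, and 1 fell, Mrpl23 (-0.044 ± 0.010), where 13.2% and 11% of all features did. The member score correlated with this score at r = 0.289 in all mice. The correlation was 0.144 over the 143 lower-numbered mice and 0.679 over the others. For this and the later correlations within parts, the scores of all mice were kept rather than rebuilt in each part. Kept in this way, the respiratory chain score gave 0.531 over the lower-numbered mice and 0.794 over the others. Over the lower-numbered mice 8 members rose and 0 fell, where 6.3% of all features passed the test in either direction.

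The cytosolic ribosome makes the proteins encoded in the nucleus, those of the mitochondrial ribosome included. Along the score of 41 cytosolic ribosomal protein genes 14 members rose and 5 fell, where 38.4% of all features rose and 34.2% fell. Mrps21 (0.18 ± 0.0099 log2 units per SD), Mrpl23 (0.18 ± 0.011), Mrpl40 (0.12 ± 0.011), Mrpl18 (0.15 ± 0.015), Mrpl12 (0.17 ± 0.018) and Mrps2 (0.080 ± 0.011) rose. Those that fell were Mrpl10 (-0.099 ± 0.0086), Mrpl37 (-0.15 ± 0.014), Mrpl39 (-0.11 ± 0.012), Mrps9 (-0.049 ± 0.011) and Mrpl32 (-0.021 ± 0.0084). With the component in the model 2 members rose, Mrps21 (0.12 ± 0.014) and Mrpl23 (0.11 ± 0.014), and 10 fell, where 16.9% of all features rose and 20.1% fell. The member score correlated with the cytosolic ribosome score at 0.447 in all mice, but at 0.331 over the lower-numbered mice and 0.0089 over the others.

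Along the proteasome score, a list of 24 subunits of the protein-degrading complex, 12 members rose and 4 fell, where 34.5% of all features rose and 21.5% fell. The 4 were Mrpl19 (-0.066 ± 0.013 log2 units per SD), Mrpl28 (-0.055 ± 0.011), Mrpl10 (-0.043 ± 0.0090) and Mrpl38 (-0.038 ± 0.011). Once the component was held fixed, 8 members rose and 8 fell, where 20.5% and 18.2% of all features did. With the first 5 components 2 rose and 10 fell, against 9.2% and 10.2% of all features.

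Slow, oxidative fibres hold more mitochondria than fast ones, and the fit along the slow-fibre genes called 3 members. Along the score of 11 such genes 2 members rose and 1 fell, where 7.56% of all features rose and 8.63% fell. Mrps21 rose by 0.072 ± 0.016 log2 units per SD (limma adjusted p = 0.000232) and Mrps35 by 0.044 ± 0.014 (0.0115), and Mrps12 fell by 0.053 ± 0.013 (0.000754). Mrps21 (0.064 ± 0.011), Mrps35 (0.041 ± 0.013), Mrpl18 (0.039 ± 0.014) and Mrpl23 (0.032 ± 0.012) rose and Mrps12 (-0.057 ± 0.012) fell with the component in the model, 4 members against 1, where 8.91% and 10.3% of all features did. The member score correlated with the slow-fibre score at r = 0.061, with -0.029 over the lower-numbered mice and 0.082 over the others.

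Markers of other cell types in muscle were set against the members. With a score of 16 macrophage genes 0 members rose and 18 fell, where 12.2% of all features rose and 26.6% fell. Mrps33 (-0.037 ± 0.0066 log2 units per SD, from the 2 probes that disagree), Mrpl16 (-0.037 ± 0.0081), Mrps31 (-0.040 ± 0.0097), Mrps21 (-0.050 ± 0.012), Mrpl32 (-0.028 ± 0.0071) and Mrpl1 (-0.052 ± 0.014) had the smallest adjusted p-values. With 13 extracellular matrix genes as the score 0 members rose and 20 fell, where 16.3% of all features rose and 33.3% fell. Mrpl1 fell most among the named members, by 0.10 ± 0.014, and Mrps31 fell by 0.063 ± 0.010. Mrpl16 (-0.048 ± 0.0086), Mrps33 (-0.034 ± 0.0072), Mrps35 (-0.049 ± 0.011) and Mrps5 (-0.038 ± 0.0084) had smaller coefficients. With the component in the model 12 members fell along the macrophage score and 10 along the matrix score, where 26.7% and 16.5% of all features did, and the same 2 members rose along each, where 16.7% and 13.3% of all features rose. These were Mrpl12 (0.049 ± 0.011 for macrophages, 0.034 ± 0.013 for the matrix) and Mrpl40 (0.037 ± 0.0079 and 0.026 ± 0.0093). At an unadjusted p below 0.05 without the component, limma gave 0 members a positive coefficient along either score, where 13.7% of all features had one along the macrophage and 18.3% along the matrix score. It gave 21 members a negative one along the macrophage score, where 33.7% of all features had one, and 20 along the matrix score, where 37% did. With the first 5 components in the model 5 members rose and 3 fell along the macrophage score, where 10.6% and 13.3% of all features did.

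With 7 white adipocyte genes as the score 4 members rose and 12 fell, where 22.5% of all features rose and 22.5% fell. The 4 that rose were Mrps2 (0.060 ± 0.0090), Mrps21 (0.041 ± 0.012), Mrpl40 (0.031 ± 0.011) and Mrpl23 (0.030 ± 0.013). Among those that fell were Mrpl37 (-0.067 ± 0.013), Mrpl38 (-0.045 ± 0.010), Mrps12 (-0.043 ± 0.0094), Mrpl21 (-0.039 ± 0.0097), Mrpl16 (-0.038 ± 0.0079) and Mrpl39 (-0.034 ± 0.011). With the component in the model 1 member rose, Mrps2 (0.048 ± 0.0081), and 14 fell, where 18.1% and 19.4% of all features did. The balance did not hold throughout: 7 rose and 5 fell over the lower-numbered mice (23.7% and 18.3% of all features), 5 and 7 without the mice numbered 331 to 350 (22.7% and 20.7%), and 3 and 1 with the first 5 components in the model (13.5% and 10.8%). The member score correlated with the macrophage, matrix and adipocyte scores at -0.278, -0.496 and -0.263 in all mice. Among mice of the lower numbers these were -0.183, -0.386 and -0.056, and among mice of the higher numbers -0.418, -0.318 and -0.339. The part of these cell types in the members' values was not tested.

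Most members fell along the mouse number. The median member score was 0.76 SD in the 18 mice numbered 51 to 70 and 1.05 in the 16 numbered 171 to 190. It was -1.79 in the 18 numbered 331 to 350 and -0.35 in the 12 above them. In a linear limma fit 21 members fell and 1 rose, where 38.7% of all features fell and 25.4% rose, and the median member lost 0.091 log2 units per 100 mouse numbers against 0.012 for all features. Of the respiratory chain genes 16 fell and 2 rose. With the first component in the model 19 members fell and 1 rose, Mrps2 (0.083 ± 0.011), where 27.4% and 27.3% of all features did. With the first 5 components 5 members fell and 2 rose, where 8.21% and 10.3% of all features did. Over the lower-numbered mice 7 fell and 3 rose (12.8% and 14.4% of all features), and over the others 22 and 0 (26.7% and 16.2%).

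Mrpl12 and Mrps21 had the largest named slopes. Mrpl12 lost 0.26 ± 0.020 log2 units per 100 numbers (SE; limma adjusted p = 3.07e-29) and Mrps21 lost 0.25 ± 0.014 (1.75e-44). Mrpl34 (-0.21 ± 0.014), Mrpl40 (-0.19 ± 0.012), Mrps12 (-0.15 ± 0.011) and Mrpl16 (-0.15 ± 0.0094) also fell. The member that rose was Mrpl37, by 0.097 ± 0.016 (4.41e-08). For Mrpl12 the median was -0.09 in mice 51 to 70, 0.27 in mice 171 to 190, -0.49 in mice 231 to 250 and -0.59 in mice 331 to 350. Within the 143 lower-numbered mice the slope of Mrpl12 was not past the threshold (0.039 per 100 numbers, limma adjusted p = 0.623). Mrpl37 fell within the 142 higher-numbered mice (-0.17, limma adjusted p = 6.29e-05), against its overall rise.

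Other lists moved along the number as well, where 25.4% of all features rose and 38.7% fell. Of 13 matrix genes 9 rose and 0 fell, and of 8 tendon genes 7 rose. Of 9 lymphocyte genes 6 rose and 1 fell, and of 11 slow-fibre genes 7 rose and 1 fell. Of the 11 fatty acid oxidation genes 7 rose and 2 fell. Of 24 proteasome genes 16 fell and 3 rose, and of 6 ATP synthase genes 5 fell and 0 rose. The spread of values on an array, which correlated with the member score at -0.315, had a median of 0.28 in mice 51 to 70 and 0.35 in mice 331 to 350. With the array spread as a covariate 21 members fell and 1 rose, where 38.4% and 24.5% of all features did. What the mouse number stands for is not given in the labels, and the part of the other lists in the members' trend was not tested.

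**Figure D4:**
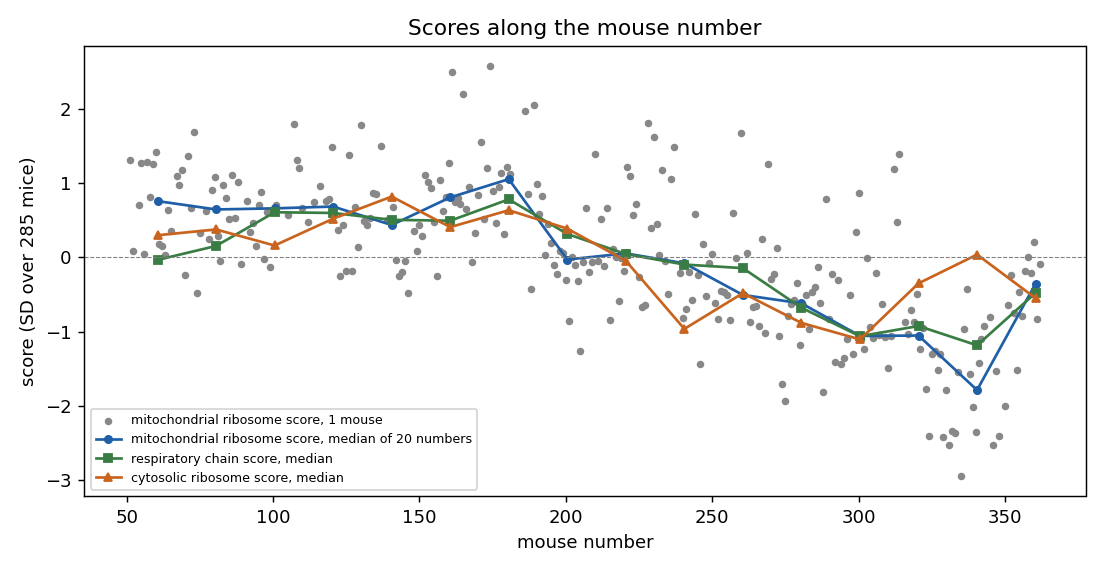
Mitochondrial ribosome score in SD (y axis) of each of 285 mice (grey dots) against mouse number (x axis), with medians over steps of 20 numbers for the mitochondrial ribosome, respiratory chain and cytosolic ribosome scores. The mitochondrial ribosome median is 0.76 at numbers 51 to 70 and lowest, -1.79, at 331 to 350, where the cytosolic ribosome median is 0.04.

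The rest of the mitochondrial gene expression machinery varied in how closely it followed the members. Of 7 genes for mitochondrial aminoacyl-tRNA synthesis all 7 correlated positively with the member score, with a median r of 0.440, and Yars2, the tyrosine enzyme, stood at 0.623. Rbfa, a maturation factor of the small subunit, stood at 0.634 and Tfb1m, which methylates the small ribosomal RNA, at 0.496. The 8 assembly genes ran from -0.177 to 0.634 with a median of 0.223. The 4 translation factors lay close to 0 (median 0.098) and had a median of 0.398 with the first component removed, highest in Gfm1 (0.603), an elongation factor. Dap3, a small-subunit protein gene without the Mrps name, correlated with the score at -0.002 (and at -0.345 with the component removed).

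Along the respiratory chain score, where 40.1% of all features rose and 34.2% fell, 5 of these 7 tRNA genes rose and 0 fell, namely Lars2 (0.20 ± 0.020 log2 units per SD), Yars2 (0.051 ± 0.010), Gatb (0.045 ± 0.016), Sars2 (0.032 ± 0.0063) and Hars2 (0.021 ± 0.010). Of the assembly genes Tfb1m, Ngrn, Rbfa and Mpv17l2 rose, while Noa1, Dhx30 and Eral1 fell. Mrrf, the ribosome recycling factor, was the 1 translation factor to pass the test and fell by 0.055 ± 0.012. Of 7 genes for mitochondrial transcription and replication 2 rose and 3 fell. Tfam, which packages mitochondrial DNA, rose by 0.074 ± 0.013 and Ssbp1, the single-strand binding protein, by 0.027 ± 0.010. Polg and Polg2, subunits of the mitochondrial DNA polymerase, fell by 0.083 ± 0.016 and 0.030 ± 0.0087, and Twnk, the helicase, fell by 0.049 ± 0.022. Of 14 import and chaperone genes 9 rose and 3 fell. Hspe1 (0.20 ± 0.016), Timm10 (0.19 ± 0.017), Timm8b (0.16 ± 0.0096), Timm23 (0.15 ± 0.010), Hspa9 (0.082 ± 0.023), Timm13 (0.072 ± 0.0065), Timm44 (0.059 ± 0.0077), Timm17b (0.036 ± 0.0062) and Timm22 (0.028 ± 0.011) rose, while Timm9 (-0.11 ± 0.016), Tomm34 (-0.068 ± 0.011) and Timm17a (-0.066 ± 0.013) fell.

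Among regulators of mitochondrial biogenesis the transcripts did not run in 1 direction. Esrra, a nuclear receptor for oxidative genes, correlated with the member score at r = 0.694 and fell along the mouse number by 0.12 ± 0.015 log2 units per 100 numbers. Ppargc1a, its coactivator, correlated at -0.295 and rose along the number by 0.43 ± 0.037, yet along the respiratory chain score, with mouse number in the model, it rose by 0.11 ± 0.039 log2 units per SD. Myc correlated at -0.498 and Pprc1, a relative of Ppargc1a, at -0.472. Nrf1 (0.222), Gabpa (-0.225) and Yy1 (-0.161), whose motifs were counted above, lay nearer to 0. With the first component removed these 3 changed sign (-0.156, 0.330 and 0.020), Myc stood at -0.119, Pprc1 at -0.073 and Esrra at 0.512. Along the respiratory chain score Esrra (0.15 ± 0.013) and Nrf1 (0.071 ± 0.0097) also rose, while Myc (-0.24 ± 0.030), Pprc1 (-0.21 ± 0.021), Ppargc1b (-0.17 ± 0.032), Yy1 (-0.14 ± 0.028) and Gabpa (-0.11 ± 0.015) fell.

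Outside all lists, the named genes closest to the member score were Tff3 (r = 0.817), TIMM50 (0.804), an inner membrane import subunit whose probe carries the human symbol, Commd1 (0.799), Endog (0.796), a mitochondrial nuclease, and Rangrf (0.795). The farthest below 0 were C2 (-0.726), a complement protein, Ezr (-0.724), which links membrane to actin, Adgrg2 (-0.720), Fat1 (-0.714) and Sptbn1 (-0.701), a spectrin. The MRPL42 probe correlated at 0.664 with the score and at 0.824 with Mrps31.

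Mrps26 followed the other members less closely than Mrpl12 (0.762) or Mrps21 (0.745) did. Its correlation with the rest of the list was 0.405, and 0.217 with the first component removed. All of its 20 closest named genes with a known position, 17 of them, lay on chromosome 2 with Mrps26 itself, where 8.18% of the placed named genes lie. The 5 closest were Anapc1 (r = -0.824), a subunit of the anaphase-promoting complex, Pla2g4e (-0.789), Slc24a5 (0.780), a cation exchanger, Ccndbp1 (-0.754) and Mcm8 (0.722). Counted in annotated protein-coding genes, Anapc1 lay 32 genes away, Mcm8 41, Slc24a5 81, Ccndbp1 128 and Pla2g4e 144. The 3 others of the 20 carried human symbols and were not placed.

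Mrpl12 and Mrps21 had neighbours on many chromosomes. The 5 genes closest to Mrpl12 were Pnkd (0.923), Lamtor4 (0.899), Syngr1 (0.886), Sltm (-0.882) and Cdc37 (0.882), and 2 of its 20 closest shared chromosome 11. The 5 closest to Mrps21 were Rbx1 (0.906), Ndufa2 (0.891), Dctpp1 (0.885), Lamtor4 (0.885) and Timm8b (0.883), and 0 of 20 shared chromosome 3. Mrpl27 came second to Mrps26 in this count, with 7 of 20 on chromosome 11, where 8.26% of placed named genes lie. Genotypes were not among the files used here, so linkage was not tested.

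Counted in steps of 0.2 log2 units, the values of Mrps26 were most frequent from -0.2 to 0, with 84 of the 285 mice. Below -0.4 lay 52 mice and above 0.4 lay 22. Gaps narrower than a step would not be seen, and a split of the mice into groups was not tested.

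**Figure D5:**
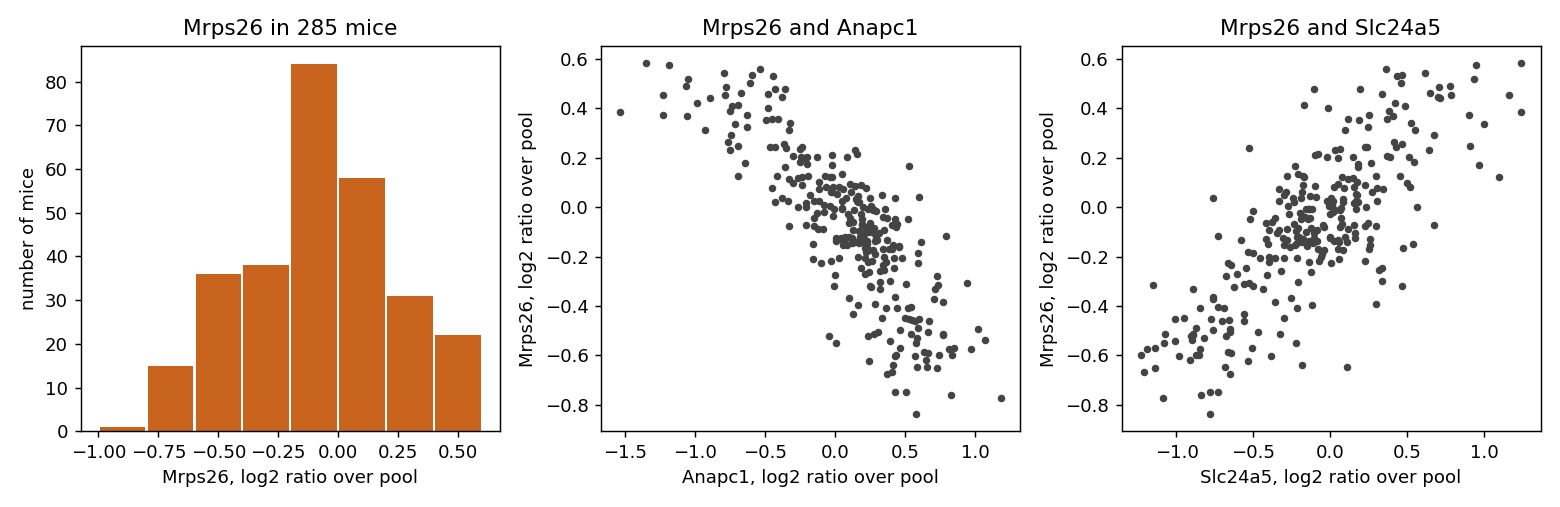
Left, number of mice (y axis) by log2 ratio of Mrps26 over pool (x axis) in steps of 0.2. Middle and right, Mrps26 (y axis) against Anapc1 and Slc24a5 (x axes), both on the same chromosome, each dot 1 of 285 mice, with r = -0.824 and 0.780.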

How the data were processed

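Per the labels, total RNA of each mouse was extracted on RNeasy columns with DNAse, amplified and aminoallyl-labelled, and hybridised in Cy3 against the Cy5 pool. The authors deposited 1 value per probe and array, read here as the log10 ratio of mouse over pool, bounded at 2 and -2. Scanner, background correction and dye normalisation are not given in the sources used here. The number of arrays limits the precision. Each mouse had 1 array, so p-values rest on the spread of mice and arrays together. A score and the genes set against it come from the same arrays, so variation shared within an array enters both.

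Of 23560 probes, 23510 had a value on at least 80% of arrays, and the 0.0972% of values missing were set to the probe mean. Genes were named from the platform annotation (13653 probes with 1 symbol, 48 with several, 9859 with none), and probes of 1 gene were averaged after conversion to log2. This gave 11622 named genes and 9890 unnamed probes. Fits used limma 3.58.1 in R 4.3.3 (lmFit and eBayes) with a natural spline of mouse number with 5 degrees of freedom, or a linear term for the number itself. The procedure was tested on simulated data in which the noise of each gene was independent. Such data lack the correlation between genes seen here, so its effect on the fits was not tested. Members, lists and tests were chosen with earlier results of these data known. Named members are the 8 of largest SD, the 8 highest and 8 lowest in r with the rest, and in each fit up to 6 per direction by adjusted p, or all of a count of 5 or fewer. Along the ATP synthase and proteasome scores only those of small counts are named. In the respiratory chain and outside all lists the 5 highest and 5 lowest in r with the member score are named, and in other mitochondrial lists those that passed the test along the respiratory chain score, with correlations of single genes added after their values were seen. For each of the 3 members of largest SD the 5 named genes of highest absolute r are named. Promoter sequences came from RefSeq (GRCm38.p6). Alternatives changed the scale of arrays, the mice used, the covariates, the probe per gene, missing values and the threshold.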

Additional observations from a re-analysis of the deposited data

How the results depend on the processing

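No paired analysis was possible because the mice form 1 group. For the counts of members called, the median pairwise r and the r of the member and respiratory chain scores, 150 alternative values kept within set limits and 28 did not. A count was held to 1.5 times its total, whatever the directions of the members. A median r was held to the SD over its pairs (0.305 among members), which exceeds the median itself. A fall from 0.273 to 0.053 between the lists thus kept within it, so this limit shows little. The r of the scores was held to its 95% interval. The named results number 66, each of 1 member along 1 score or the mouse number. Among their alternative values 673 kept direction and threshold, 66 kept direction alone and 46 turned. The causes were not tested unless a value is given above. Restriction to probes with a value on every array, and to the probe of largest SD of a gene, changed no count by over 1.5 times. Array spread as a covariate, leaving out numbers 331 to 350, and removing the spline before correlating were chosen after seeing the data. A threshold of 0.001 lowers counts by construction.

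At adjusted p below 0.001 the members called were 10 along the proteasome (34.2% of all features called in the same fit), 6 along the adipocyte (20.1%), 5 along the macrophage (16.6%) and 11 along the matrix score (25.4%). The lower-numbered mice gave 8 along fatty acid oxidation (6.3% of all features), 5 along slow fibre (16.5%), 4 along macrophage (17.1%) and 10 along mouse number (27.2%). The higher-numbered mice gave 3 along proteasome (12.7%), 6 along slow fibre (7.83%) and 4 along adipocyte (16%). Without the spline there were 25 along proteasome (66.5%) and 10 along slow fibre (29.1%), and with arrays scaled to 1 SD 6 along slow fibre (18.8%). With the first component 12 were called along the cytosolic ribosome (37%), 5 along slow fibre (19.2%) and 12 along matrix (29.8%). With the first 5 components there were 12 along the cytosolic ribosome (24.2%), 12 along slow fibre (19.6%), 4 along adipocyte (24.3%), 8 along macrophage (23.9%, 5 members rose and 3 fell), 4 along matrix (25.9%) and 7 along mouse number (18.5%). The r between the member and respiratory chain scores was 0.618 over the lower-numbered mice and 0.806 over the others, 0.683 with the spline removed, 0.448 with 1 component and 0.634 with 5 components removed.

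With the first component these coefficients turned sign: along the respiratory chain Mrpl37 (0.082), Mrpl10 (0.079) and Mrpl39 (0.15), along ATP synthase Mrpl10 (0.031), Mrpl37 (0.12) and Mrpl39 (0.10), along the cytosolic ribosome Mrpl12 (-0.042) and Mrpl32 (0.00027), and along mouse number Mrpl37 (-0.024). With 5 components, along the respiratory chain Mrpl37 (0.061), Mrpl10 (0.083) and Mrpl39 (0.12), along ATP synthase Mrpl10 (0.024), Mrpl37 (0.071) and Mrpl39 (0.061), and along the cytosolic ribosome Mrpl40 (-0.031), Mrpl18 (-0.031), Mrpl12 (-0.018), Mrps2 (-0.036), Mrpl37 (0.053), Mrps9 (0.0077) and Mrpl32 (0.070) turned. So did Mrps12 along slow fibre (0.0012) and along mouse number (0.015), and Mrpl40 (-0.0021), Mrpl37 (0.020) and Mrpl39 (0.021) along adipocyte. Along macrophage Mrps33 (0.011), Mrpl16 (0.013), Mrps31 (0.023), Mrpl32 (0.0062) and Mrpl1 (0.035) turned, and along matrix Mrps33 (0.0061). In the higher-numbered mice Mrpl10 (0.028) and Mrpl39 (0.0081) along the respiratory chain, Mrpl10 (0.0099) and Mrpl19 (0.00015) along ATP synthase, Mrpl10 (0.0034) and Mrpl38 (0.0013) along proteasome, Mrpl39 (0.011) along adipocyte and Mrpl37 (-0.17) along mouse number turned. In the lower-numbered mice Mrps12 along adipocyte (0.0022) and Mrpl12 along mouse number (0.039) did. Without the spline Mrps21 (-0.0083) and Mrpl40 (-0.0028) along adipocyte and Mrpl28 along proteasome (0.014) did.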
